A study of Mus musculus with 8 samples.

Results

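Astrocyte cultures of Spp1 knockout mice were compared with wild-type cultures for the surface receptors by which myeloid cells read antibodies, glycans, lipids and neighbouring cells. The set held the genes of the authors' deposited table named as Fc receptors, Ms4a proteins, C-type lectins, CD300, Siglec, leukocyte and paired immunoglobulin-like, TREM and SIRP receptors, SLAM proteins and scavenger receptors, with their signalling adaptors. It came to 53 of the 3624 genes in that table. The knockout group comprised 4 samples of genotype Spp1-/- from the strain B6.129S6(Cg)-Spp1tm1Blh/J, and the other group 4 wild-type C57BL/6 samples. All were primary cultured astrocytes from retinas and optic nerves taken at postnatal days 1 to 3 and grown in DMEM/F12 with 10% fetal bovine serum. Spp1 encodes osteopontin, a secreted phosphoprotein that acts in matrix and as a cytokine. Nothing in the labels ties the samples to separate cultures or mice, so the p-values measure a spread that may be technical.

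Myeloid receptors come as activating and inhibitory forms that often bind similar ligands. Activating forms pair with the adaptors FcR gamma chain, encoded by Fcer1g, or DAP12, encoded by Tyrobp, whose tyrosine motifs (ITAMs) recruit the kinase Syk. Inhibitory forms carry a tyrosine motif of their own (ITIM) that recruits the phosphatases SHP-1 and SHIP-1. In the retina, optic nerve and brain these receptors are known mainly from microglia and macrophages.

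The authors' deposited table gives 1 row per gene and no values per sample, so levels in single cultures and their overlap between genotypes are not shown here. For each gene it gives the mean normalized count of the 8 samples, the log2 fold change and its standard error (SE), and the adjusted p-value. No listed gene has an adjusted p above 0.0499 or a fold change smaller than 0.58 on the log2 scale, and a gene outside it was not shown to change or to be unchanged. Fold changes are read as knockout over wild type, since Spp1 stood at -5.90 (SE 0.11) in the authors' deposited table. Group levels are implied means, worked out from the mean count and the fold change for groups of equal size, and intervals are at 95% from the deposited SE. The depth of each sample is unknown.

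Of the 53 members 51 were higher in the knockout and 2 lower, where 54.9% of all genes in the authors' deposited table were higher and 45.1% lower. The median log2 fold change of the members was 2.43, a 5.39-fold higher level, beside 0.66 for the whole table. The smallest rise was 1.21 and the largest 5.81 on the log2 scale. Every member is in the table because it passed both limits, so its presence is not a separate finding. The annotation holds 122 protein-coding genes with such names, of which 53 (43.4%) are in the authors' deposited table, beside 16.0% of all 21992 protein-coding genes. The 51 higher ones are 41.8% of the 122, beside 8.78% of all protein-coding genes that are in the table and higher. In bulk samples, more cells of a type and more RNA per cell cannot be told apart.

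**Figure D1:**
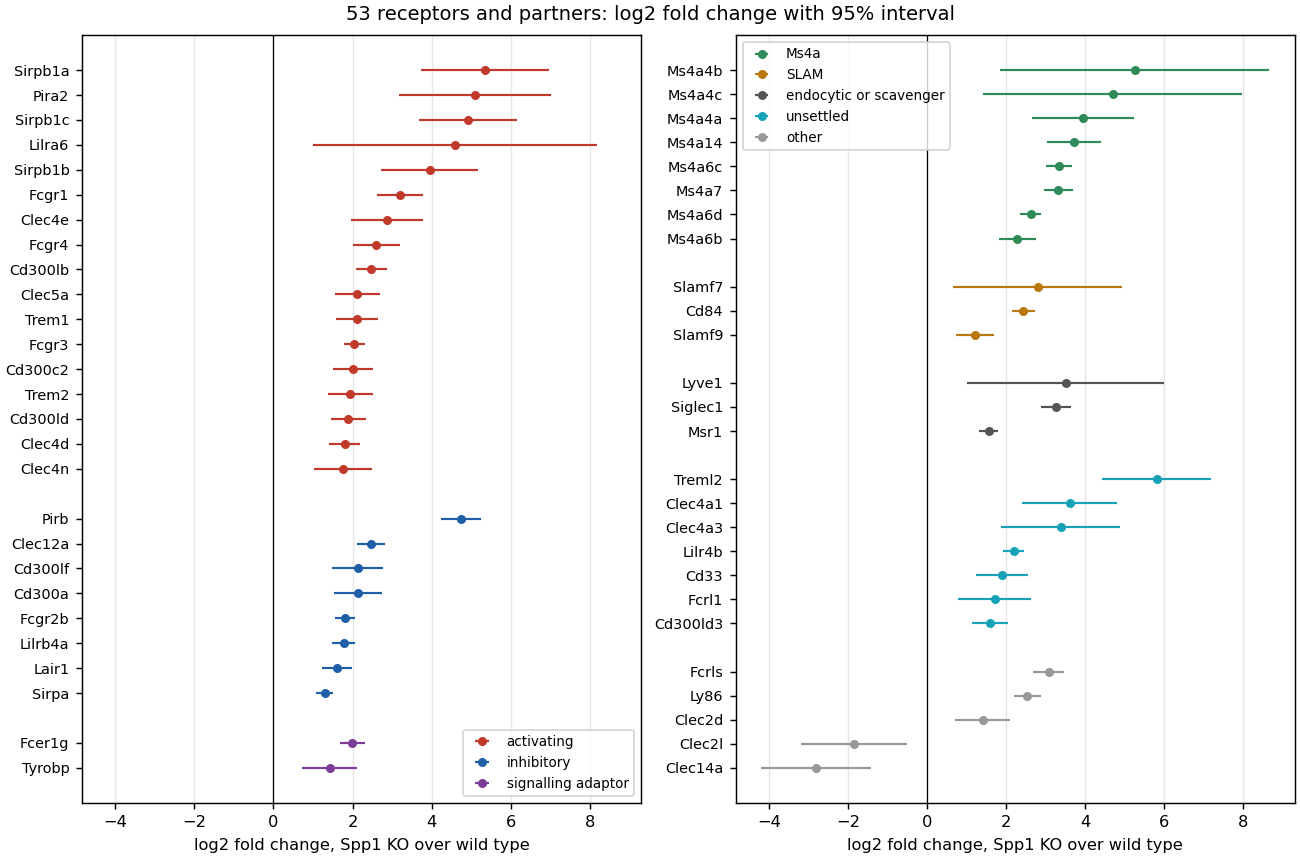
Log2 fold change of Spp1 knockout over wild type (x axis) for each of the 53 members (rows), with points for the deposited value and bars for its 95% interval, coloured by class. All 17 activating and 8 inhibitory receptors lie to the right of 0, and Clec2l and Clec14a lie to the left.

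Both signalling adaptors in the table were higher in the knockout. Fcer1g had an implied mean count of 2501 in knockout and 628 in wild-type cultures, and its log2 fold change in the authors' deposited table was 1.99 (SE 0.16, adjusted p = 7.5e-34). Tyrobp had 1600 in knockout and 599 in wild-type cultures, with a log2 fold change of 1.42 (SE 0.36, adjusted p = 5.3e-04) in the authors' deposited table. The intervals of the adaptors overlapped, at 1.68 to 2.31 for Fcer1g and 0.72 to 2.12 for Tyrobp. Per kilobase of annotated exon both were abundant, Fcer1g with 2862 counts in knockout and 719 in wild-type cultures, and Tyrobp with 2399 in knockout and 898 in wild-type cultures.

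Activating receptors were higher in the knockout in all 17 listed cases, out of 29 annotated. Their log2 fold changes ran from 1.76 to 5.35 with a median of 2.48, a 5.56-fold higher level. Of the 17, 10 pair with the FcR gamma chain (median 2.33) and 7 with DAP12 (median 2.48). Inhibitory receptors were higher in all 8 listed cases, out of 17 annotated, from 1.30 to 4.74 with a median of 1.97, a 3.92-fold higher level. The activating median was thus 0.51 above the inhibitory one on the log2 scale. Of the 17 activating receptors, 14 lay within the range of the inhibitory ones, but 9 lay above every inhibitory receptor except Pirb. Genes are not replicates, so the difference between the medians has no test. Leaving out members with a near-identical copy (the Sirpb1 genes, Pira2 and Lilrb4a) brought it to -0.021, with medians of 2.11 for activating and 2.13 for inhibitory receptors. Among receptors with a mean count of at least 100 it was 0.24, from a median of 2.05 over 9 activating and 1.81 over 7 inhibitory receptors.

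Members with higher counts tended to have smaller fold changes. Spearman's rho between mean count and log2 fold change was -0.46 across the 51 higher members, given as a description. In all, 8 of the 17 activating but 1 of the 8 inhibitory receptors had a mean count under 100, and the median log2 fold change of those 8 was 4.27. Over all members, the 21 with a mean under 100 had a median of 3.50 and a median SE of 0.68, while the 32 with a mean of at least 100 had 2.13 and 0.20. A gene of low count and high SE needs a larger fold change to enter the table. The part of count level in the difference between the classes was not tested.

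Receptors for the Fc part of IgG were higher in activating and inhibitory forms alike. Fcgr1, the high-affinity receptor, had an implied mean count of 1224 in knockout and 134 in wild-type cultures, with a log2 fold change of 3.19 (SE 0.30, adjusted p = 6.8e-25) in the authors' deposited table. Fcgr3, the abundant low-affinity receptor, had 2069 in knockout and 500 in wild-type cultures, with a log2 fold change of 2.05 (SE 0.13, adjusted p = 1.2e-51) in the authors' deposited table. The third activating form, Fcgr4, had 230.3 in knockout and 37.9 in wild-type cultures, at 2.60 (SE 0.30) in the authors' deposited table. Fcgr2b is the inhibitory IgG receptor. It had 1342 in knockout and 382 in wild-type cultures, at 1.81 (SE 0.13, adjusted p = 1.7e-43) in the authors' deposited table. The Fcgr2b interval, 1.56 to 2.06, overlapped that of Fcgr3 (1.79 to 2.31) and Fcgr4 (2.01 to 3.19) and lay below that of Fcgr1 (2.61 to 3.78). Summed per kilobase of exon, the 3 activating receptors stood at 1848 counts in knockout and 370 in wild-type cultures, and Fcgr2b at 232 in knockout and 66.1 in wild-type cultures. That gave an activating to inhibitory ratio of 7.97 in the knockout and 5.60 in wild type, which has no replicate check here.

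SIRP receptors had the widest gap between activating and inhibitory forms among the 5 families compared. Sirpa, the inhibitory receptor for CD47, which in mice is also found on neurons, had an implied mean count of 11433 in knockout and 4655 in wild-type cultures. Its log2 fold change of 1.30 (SE 0.11) in the authors' deposited table was the smallest among the 8 inhibitory receptors. The DAP12-paired Sirpb1a, Sirpb1c and Sirpb1b stood at 5.35 (SE 0.82), 4.92 (SE 0.63) and 3.95 (SE 0.62) in the authors' deposited table. These rare transcripts had implied means of 44.8, 118 and 43.7 in knockout and 1.10, 3.87 and 2.83 in wild-type cultures, in the order Sirpb1a, Sirpb1c, Sirpb1b. They are near-identical copies, and reads could be split among them in an unknown way. Per kilobase of exon the 3 together reached 66.7 counts in knockout and 2.51 in wild-type cultures, far below Sirpa with 2328 in knockout and 948 in wild-type cultures.

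Paired immunoglobulin-like receptors were far higher in the inhibitory and the activating form alike. Pirb, an inhibitory receptor for MHC class I that in mouse neurons also binds myelin proteins, had an implied mean count of 695 in knockout and 26.0 in wild-type cultures. Its log2 fold change was 4.74 (SE 0.26, adjusted p = 3.3e-72) in the authors' deposited table, the largest among the inhibitory receptors. The activating Pira2 stood at 5.10 (SE 0.98) and Lilra6 at 4.59 (SE 1.84) in the authors' deposited table, with implied means of 31.0 and 3.81 in knockout and 0.90 and 0.16 in wild-type cultures. The size of such values depends on counts near 0, and the genes of this cluster resemble one another. Lilrb4a, an inhibitory relative on another chromosome, had 678 in knockout and 198 in wild-type cultures, at 1.77 (SE 0.15) in the authors' deposited table. Its near-identical neighbour Lilr4b, without a settled sign, had 1073 in knockout and 237 in wild-type cultures, at 2.18 (SE 0.13) in the authors' deposited table. Both share exon bases with the annotated gene Gm49339, so their values are uncertain. Lair1, an inhibitory receptor for collagen, stood at 1.60 (SE 0.19) in the authors' deposited table, with 621 in knockout and 204 in wild-type cultures.

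In the CD300 family, which binds membrane lipids, the values of both signs lay close together. The activating Cd300lb, Cd300c2 and Cd300ld stood at 2.48 (SE 0.20), 2.02 (SE 0.26) and 1.90 (SE 0.23) in the authors' deposited table. Cd300lf and Cd300a, which carry ITIMs, stood at 2.14 (SE 0.33) and 2.13 (SE 0.31) in the authors' deposited table. All 5 intervals overlapped. Cd300ld3, without a settled sign, stood at 1.58 (SE 0.23) in the authors' deposited table. Per kilobase of exon the ratio of activating to inhibitory CD300 was 8.32 in the knockout and 8.42 in wild type.

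Among C-type lectins, which bind sugars of microbes and damaged cells, the inhibitory member lay within the range of the activating ones. Clec12a, an inhibitory receptor for uric acid crystals, had an implied mean count of 622 in knockout and 112 in wild-type cultures, at 2.47 (SE 0.18) in the authors' deposited table. The activating receptors Clec4e (Mincle), Clec5a, Clec4d and Clec4n (Dectin-2) stood at 2.87 (SE 0.46), 2.12 (SE 0.29), 1.80 (SE 0.20) and 1.76 (SE 0.37) in the authors' deposited table. Clec4d had 564 in knockout and 161 in wild-type cultures. Per kilobase of exon the ratio of these 4 activating receptors to Clec12a was 4.45 in the knockout and 6.73 in wild type, the opposite direction to the Fc gamma ratio. Clec4a1 and Clec4a3, lectins without a settled sign, stood at 3.60 (SE 0.61) and 3.37 (SE 0.77) in the authors' deposited table.

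**Figure D2:**
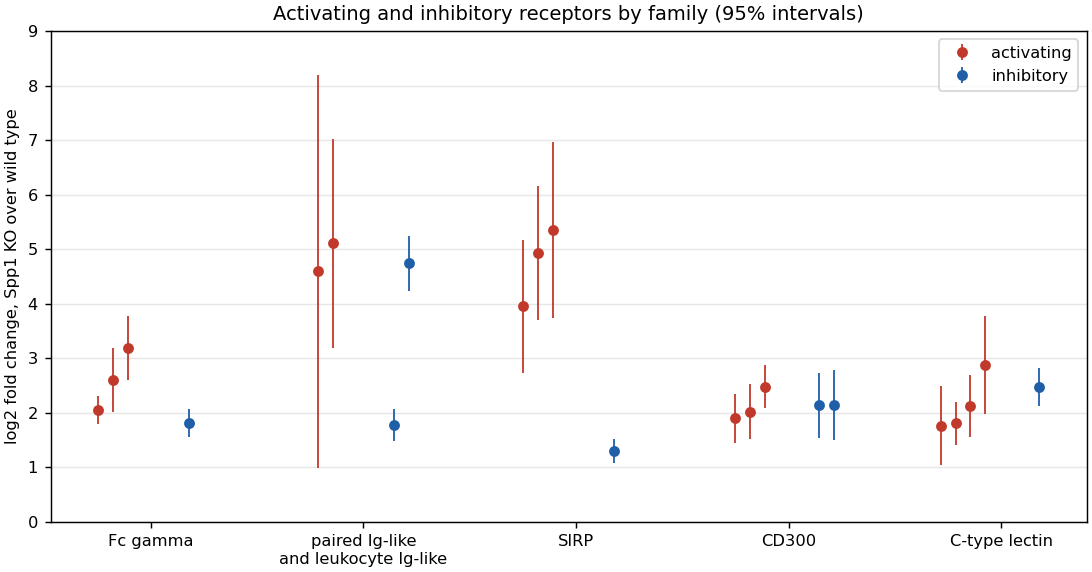
Log2 fold change of Spp1 knockout over wild type (y axis) for activating (red) and inhibitory (blue) receptors of 5 families (x axis), with bars for 95% intervals. The SIRP forms are apart, from 3.95 to 5.35 against 1.30, while the CD300 forms lie between 1.90 and 2.48.

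Trem1, Trem2 and Treml2, the listed genes of the TREM family, were all higher. Trem2, a lipid receptor of microglia that pairs with DAP12, had an implied mean count of 2453 in knockout and 637 in wild-type cultures, with a log2 fold change of 1.95 (SE 0.29, adjusted p = 2.6e-10) in the authors' deposited table. Trem1, a DAP12-paired amplifier of inflammatory signals, had 115 in knockout and 26.8 in wild-type cultures, at 2.11 (SE 0.28) in the authors' deposited table. Treml2, whose signalling sign is unsettled, had the largest rise of all members at 5.81 (SE 0.70, adjusted p = 4.2e-15) in the authors' deposited table. Its implied mean was 74.3 in knockout and 1.33 in wild-type cultures. No inhibitory member of this family was in the table.

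Ms4a genes encode membrane-spanning proteins, and their median lay above those of both receptor classes. All 8 listed of 17 annotated genes counted in this class were higher, from 2.28 to 5.25 with a median of 3.52, an 11.5-fold higher level. Ms4a7, known from macrophages at the borders of the brain, had an implied mean count of 1454 in knockout and 146 in wild-type cultures, at 3.32 (SE 0.19, adjusted p = 7.0e-66) in the authors' deposited table. Ms4a6c stood at 3.33 (SE 0.17), Ms4a6d at 2.61 (SE 0.14) and Ms4a6b at 2.28 (SE 0.24) in the authors' deposited table. Ms4a14 had 462 in knockout and 35.3 in wild-type cultures, at 3.71 (SE 0.35) in the authors' deposited table. The Ms4a4 genes were rare, with Ms4a4a at 3.94 (SE 0.66), Ms4a4b at 5.25 (SE 1.74) and Ms4a4c at 4.70 (SE 1.67) in the authors' deposited table. Their implied wild-type means were 3.31, 0.27 and 0.45. Among the 5 Ms4a genes with a mean of at least 100 the median was 3.32. The Ms4a4 and Ms4a6 genes are close copies of one another, so reads may be divided among them.

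Scavenger and sialic acid receptors were higher where listed. Siglec1, a sialic acid lectin of tissue macrophages, had an implied mean count of 3399 in knockout and 354 in wild-type cultures, at 3.26 (SE 0.20, adjusted p = 4.3e-60) in the authors' deposited table. Msr1, a receptor for modified lipoproteins, had 2614 in knockout and 892 in wild-type cultures, at 1.55 (SE 0.13) in the authors' deposited table. Lyve1, a hyaluronan receptor of lymphatic endothelium and border macrophages, had 7.76 in knockout and 0.69 in wild-type cultures, at 3.50 (SE 1.27, adjusted p = 0.023) in the authors' deposited table. In this class 15 of 18 annotated genes, among them Cd163, Marco, Clec10a and 7 Cd209 genes, were not in the table. Cd33, a sialic acid lectin whose mouse form has no settled sign, had 460 in knockout and 123 in wild-type cultures, at 1.90 (SE 0.34) in the authors' deposited table.

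SLAM proteins, which mostly bind themselves on neighbouring blood cells, were led by Cd84. It had an implied mean count of 2983 in knockout and 553.5 in wild-type cultures, at 2.43 (SE 0.15, adjusted p = 3.1e-56) in the authors' deposited table. Slamf9 stood at 1.21 (SE 0.24), the smallest rise among the 51, and the rare Slamf7 at 2.80 (SE 1.09), in the authors' deposited table. Slamf1, Slamf6 and Slamf8 were not in the table.

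Other members included Fcrls, the gene with the highest knockout level per length of the set. This Fc receptor-like gene, known as a marker of mouse microglia, had an implied mean count of 12425 in knockout and 1482 in wild-type cultures, at 3.07 (SE 0.20, adjusted p = 2.1e-50) in the authors' deposited table. Ly86, whose product MD-1 partners the Toll-like receptor relative RP105, had 2319 in knockout and 401 in wild-type cultures, at 2.53 (SE 0.17) in the authors' deposited table. Fcrl1, known from B cells, was rare, with 50.8 in knockout and 15.5 in wild-type cultures, and stood at 1.71 (SE 0.47) in the authors' deposited table. Clec2d, which encodes a ligand of an inhibitory receptor of natural killer cells, stood at 1.40 (SE 0.36) in the authors' deposited table.

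The 2 lower members are not known as myeloid receptors. Clec14a, a lectin-like protein of endothelial cells, had an implied mean count of 3.62 in knockout and 25.4 in wild-type cultures, a log2 fold change of -2.81 (SE 0.71, adjusted p = 5.2e-04) in the authors' deposited table and a 7.02-fold lower level. Clec2l, a lectin-like gene known from brain, had 7.62 in knockout and 27.6 in wild-type cultures, at -1.86 (SE 0.68, adjusted p = 0.025) in the authors' deposited table. Both were rare in either genotype.

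Ordered by knockout level per kilobase of exon, Fcrls came first with 5323 counts, followed by Fcer1g, Tyrobp and Sirpa. Fcgr3 was the highest activating receptor per kilobase, with 1192 in knockout and 288 in wild-type cultures. Trem2, with a greater exon length, had the higher implied mean count, 2453 in knockout and 637 in wild-type cultures. Per kilobase, Ms4a6d was the highest Ms4a gene, with 800.0 in knockout and 131 in wild-type cultures. In wild-type cultures Sirpa ranked first with 948, ahead of Tyrobp with 898, Fcer1g with 719 and Fcrls with 635. Summed per kilobase, the 17 activating receptors stood at 3458 in knockout and 762 in wild-type cultures, and the 8 inhibitory ones at 3100 in knockout and 1119 in wild-type cultures. The activating to inhibitory ratio was 1.12 in the knockout and 0.68 in wild type. Without Sirpa it was 4.48 in the knockout and 4.45 in wild type, so the difference in this ratio rested on that gene.

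**Figure D3:**
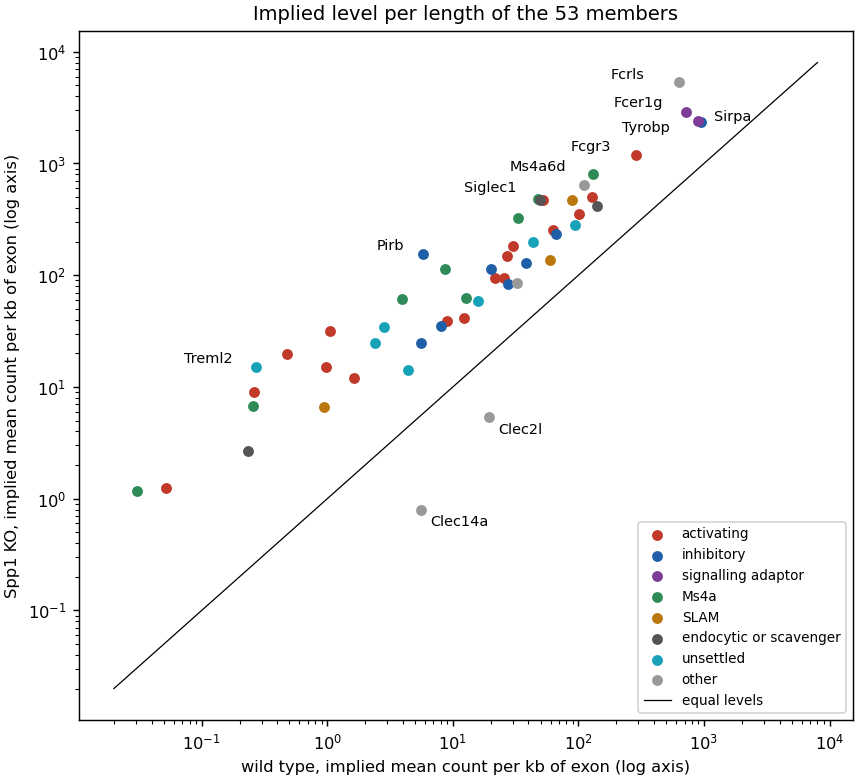
Implied mean count per kilobase of exon in Spp1 knockout (y axis, log) and wild-type cultures (x axis, log) for the 53 members, coloured by class, with a line of equal levels. Fcrls is at 5323 in the knockout and 635 in wild type, and Clec2l and Clec14a lie below the line.

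Genes that act downstream of the receptors were read from lists of effectors. Of 22 genes that relay activating signals, 17 were in the authors' deposited table and all 17 were higher. Their median log2 fold change was 1.69. Among all protein-coding genes, 16.0% were in the table and 8.78% were in it and higher. Syk, the kinase bound by ITAMs, stood at 2.56 (SE 0.14), the adaptor gene Pik3ap1 and the phosphoinositide 3-kinase gene Pik3cg at 2.71 (SE 0.12) and 2.66 (SE 0.18), and the kinase gene Btk at 2.42 (SE 0.21) in the authors' deposited table. Of 14 genes listed as relaying or applying inhibition, 7 were higher and 1 lower. Their median was 1.87 with Sh2d1b1 counted, the highest of the list. Whether this median lies above or below that of the activating effectors depends on that gene. Inpp5d, which encodes SHIP-1, stood at 2.61 (SE 0.22), Ptpn6, which encodes SHP-1, at 2.24 (SE 0.20) and Sla at 2.09 (SE 0.28) in the authors' deposited table. The rare Sh2d1b1, without a settled sign, was at 4.46 (SE 0.66) in the authors' deposited table. Its implied mean was 2.03 in wild-type cultures. Against them stood the adaptor gene Dok1, at -0.87 (SE 0.29) in the authors' deposited table.

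Regulators of myeloid cells were higher in 9 of 13 cases and lower in 0, with a median of 1.73. Of all protein-coding genes, 8.78% were in the table and higher. The regulators Spi1, Irf8 and Csf1r are also counted among the macrophage and microglia markers below. Csf1r, the receptor that maintains macrophages, stood at 2.76 (SE 0.20), Irf5 at 1.84 (SE 0.15), Ikzf1 at 2.07 (SE 0.21) and Maf at 1.19 (SE 0.12) in the authors' deposited table. Of 12 ligands of these and related myeloid receptors, 5 were listed, 1 higher and 4 lower. Csf1 and Il34, both ligands of Csf1r, stood at -0.77 (SE 0.13) and -0.91 (SE 0.19), and Cd200, a ligand that restrains myeloid cells, at -0.65 (SE 0.13) in the authors' deposited table. Pianp, which encodes a ligand of Pilra, stood at -2.61 (SE 1.01) in the authors' deposited table. The higher ligand was C1qa, a complement subunit that is also counted among those markers, at 1.80 (SE 0.33) in the authors' deposited table.

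Markers of macrophages and microglia moved with the receptors. Of 28 such markers 26 were in the authors' deposited table and all 26 higher, beside 8.78% of all protein-coding genes listed and higher. Leaving out Fcgr1, which is also a receptor member, the other 25 had a median of 2.22 and a range of 1.49 to 2.94. Of the 53 receptors and partners, 28 lay within that range, 19 above it and 4 of the higher ones below it. Only 7 of the 19 above it had a mean count of at least 100. Border macrophage markers were higher in 8 of 14 cases with a median of 3.29, but 4 of the 8 are receptor members, and the other 4 had a median of 2.66. Mrc1 led them at 4.36 (SE 0.13) in the authors' deposited table. Homeostatic microglia markers were higher in 6 of 12 cases with a median of 1.66, among them P2ry12 at 2.19 (SE 0.26) and Cx3cr1 at 2.29 (SE 0.12) in the authors' deposited table. Summed per kilobase, the 26 macrophage markers, Fcgr1 included, stood at 113399 counts in knockout and 23340 in wild-type cultures. Lyz2 alone made up 60365 of this in knockout and 11144 in wild-type cultures. The part of cell number in the receptor values was not tested.

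Of 55 markers of other blood cells, 8 (14.5%) were in the authors' deposited table, beside 16.0% of all protein-coding genes. For mast cells 3 of 10 were listed: Kit, a growth factor receptor also found outside mast cells, at 4.01 (SE 0.28), Hdc at 1.37 (SE 0.56) and Gata2 at -1.07 (SE 0.40) in the authors' deposited table. Kit had an implied mean count of 489 in knockout and 30.3 in wild-type cultures. Dendritic cell markers had 2 of 10 listed, both higher (Itgax and Bst2), and neutrophil markers 1 of 12, also higher (Csf3r). Of the T and natural killer cell markers 2 of 13 were listed, Zap70 higher and Cd247 lower, and of the B cell markers 0 of 10. A marker outside the table was not shown to be absent. Of 12 astrocyte markers 6 were listed, 4 higher and 2 lower. The lower ones were S100b at -1.82 (SE 0.15) and Fabp7 at -1.23 (SE 0.10), and the higher ones included Gjb6 at 4.28 (SE 0.37) and Aqp4 at 1.15 (SE 0.16), in the authors' deposited table. Gfap, the astrocyte intermediate filament, had an implied mean of 21793 counts per kilobase in knockout and 13825 in wild-type cultures, at 0.66 (SE 0.16) in the authors' deposited table. The Y-linked genes Ddx3y, Eif2s3y, Uty and Kdm5d were all higher in the knockout, at 5.91 or more in the authors' deposited table. In that order, their implied means were 1605, 550, 457 and 905 in knockout cultures. In wild-type cultures they were 0.16, 0.16, 7.12 and 15.0, so RNA of Ddx3y and Eif2s3y was near absent there. The labels give no sex, so sex, strain background and genotype cannot be told apart.

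**Figure D4:**
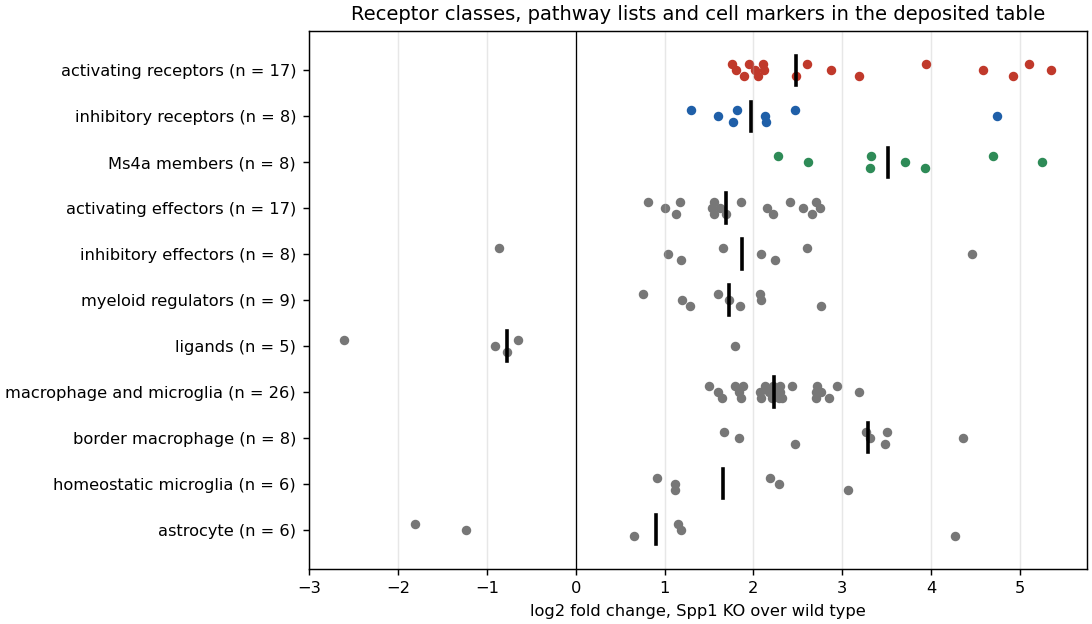
Log2 fold change of Spp1 knockout over wild type (x axis) for the listed genes of receptor classes, pathway lists and cell markers (rows), with a black bar at each median. The Ms4a median (3.52) lies above the macrophage and microglia median (2.23), and 4 of the 8 border macrophage markers are receptor members. Of 5 listed ligands of these and related myeloid receptors, 4 lie left of 0.

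Receptor genes lie in clusters, and 7 runs of such genes with gaps under 1 Mb held 3 or more members, 36 of the 53 in all. None of the 53 lies on chromosome 5, which carries Spp1. The Ms4a run on chromosome 19 (GRCm38, 10962293 to 11640851) held 19 annotated genes, 8 of them listed and all 8 higher, while its 3 other protein-coding genes were not in the table. The Cd300 run on chromosome 11 (114890041 to 115133992) had 6 of 11 listed, the Clec4 run on chromosome 6 (122921848 to 123289870) 5 of 9, and the Sirpb1 run on chromosome 3 (15371653 to 15848528) 3 of 3. In the run on chromosome 1 (170907273 to 173227214) that holds Fcgr2b, Fcgr3, Fcgr4, Fcer1g and the SLAM genes, 7 of 14 were listed and higher. There 14 of 54 other protein-coding genes were listed, 9 higher and 5 lower, so neighbours did not share 1 direction. The higher ones included the leukocyte genes Cd48 (2.20, SE 0.18) and Ly9 (1.95, SE 0.28), and the lower ones Casq1 (-1.17, SE 0.13) and Tagln2 (-0.62, SE 0.14), in the authors' deposited table.

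Promoters were read for letters that the factor PU.1 (Spi1), a master regulator of myeloid cells, is known to bind. Spi1 itself stood at 1.60 (SE 0.22) in the authors' deposited table. RefSeq promoter sequences of GRCm38.p6, from 250 bases before to 50 after the annotated start, matched 44 of the 53 members by symbol. GAGGAAG or its reverse complement was in the promoters of 20 of the 44 members (45.5%), beside 15.4% of all 27025 genes with such an entry and 18.3% of the 2740 genes of the deposited table with one. It was found in 9 of 16 activating receptors, 5 of 6 inhibitory receptors and 0 of 7 Ms4a genes. Neighbours that resemble one another, such as Pira2, Lilra6 and Pirb, are counted singly, so these counts may not be independent. In 11 members a match began in the last 100 bases before the start. The shorter Ets core GGAAGT, which overlaps it in 10 of the 20, was in 25 members (56.8%), beside 26.5% of all genes. A match is a run of letters, not a measured site.

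The 120 bases before the start are shown for 5 activating receptors (Fcgr1, Fcgr3, Fcgr4, Trem2 and Clec5a) and 4 inhibitory receptors (Cd300a, Cd300lf, Clec12a and Lair1) with a match in this stretch, since the same letters stand before genes of both signs. Capitals mark GAGGAAG or its reverse complement CTTCCTC, and all are written 5′ to 3′ on the strand of the gene (GRCm38.p6).
Fcgr1 (chr3:96293970-96294089, minus strand): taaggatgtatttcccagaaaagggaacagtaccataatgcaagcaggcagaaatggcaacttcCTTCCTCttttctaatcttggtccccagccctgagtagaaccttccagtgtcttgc
Fcgr3 (chr1:171059395-171059514, minus strand): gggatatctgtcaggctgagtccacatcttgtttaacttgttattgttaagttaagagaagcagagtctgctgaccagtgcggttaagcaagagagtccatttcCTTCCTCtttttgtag
Fcgr4 (chr1:171018806-171018925, plus strand): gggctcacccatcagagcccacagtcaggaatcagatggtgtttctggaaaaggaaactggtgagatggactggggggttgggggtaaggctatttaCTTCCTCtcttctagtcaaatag
Trem2 (chr17:48346281-48346400, plus strand): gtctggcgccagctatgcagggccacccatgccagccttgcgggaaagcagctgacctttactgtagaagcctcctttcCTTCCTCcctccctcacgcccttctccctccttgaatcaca
Clec5a (chr6:40585806-40585925, minus strand): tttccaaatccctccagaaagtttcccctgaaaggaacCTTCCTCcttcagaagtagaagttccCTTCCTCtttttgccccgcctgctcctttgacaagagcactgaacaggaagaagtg
Cd300a (chr11:114889921-114890040, plus strand): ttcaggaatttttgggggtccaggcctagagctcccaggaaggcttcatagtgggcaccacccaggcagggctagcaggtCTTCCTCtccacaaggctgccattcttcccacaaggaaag
Cd300lf (chr11:115133993-115134112, minus strand): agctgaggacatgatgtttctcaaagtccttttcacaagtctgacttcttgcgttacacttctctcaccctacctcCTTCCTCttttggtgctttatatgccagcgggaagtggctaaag
Clec12a (chr6:129350124-129350243, plus strand): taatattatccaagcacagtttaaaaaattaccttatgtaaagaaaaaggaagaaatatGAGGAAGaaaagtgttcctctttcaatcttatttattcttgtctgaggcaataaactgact
Lair1 (chr7:4063205-4063324, minus strand): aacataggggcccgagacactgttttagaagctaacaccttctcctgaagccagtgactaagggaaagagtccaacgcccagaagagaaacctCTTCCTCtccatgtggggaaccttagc

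In 8 of these 9 promoters the letters stand as CTTCCTC, on the strand opposite to the gene, and Clec5a holds them at 2 places. That orientation describes the printed promoters only, which are a chosen set. The inhibitory Pirb also has a match in this stretch but is not printed. Its match begins 120 bases before the start, on the strand of the gene. Among all 20 members with a match both orientations occur. The nearest of the printed matches begins 16 bases before the start, in Fcgr3, and that of Fcgr1 begins 56 bases before. Fcgr2b, the inhibitory partner of the activating Fc gamma receptors, has no match to GAGGAAG in its window. It does have the Ets core on the opposite strand, 31 bases before the start.

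Other motifs were searched on both strands in the same windows. The interferon regulatory factor element, GAAA repeated after any 2 bases, was in 6 of 44 members (13.6%), beside 3.99% of all genes and 5.51% of the genes of the deposited table. The 6 were 5 of 16 activating receptors, among them the near-identical copies Sirpb1a and Sirpb1b, and Clec2d, with 0 of 6 inhibitory receptors. The GC box GGGCGG was in 1 member (2.27%), beside 38.2% of all genes and 59.3% of the genes of the deposited table. The E-box CACGTG was also in 1 member (2.27%, beside 8.09%), the AP-1 element TGACTCA in 4 (9.09%, beside 5.95%), TTGCNNAA in 6 (13.6%, beside 12.2%) and TATAAA in 9 (20.5%, beside 15.7%).

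**Figure D5:**
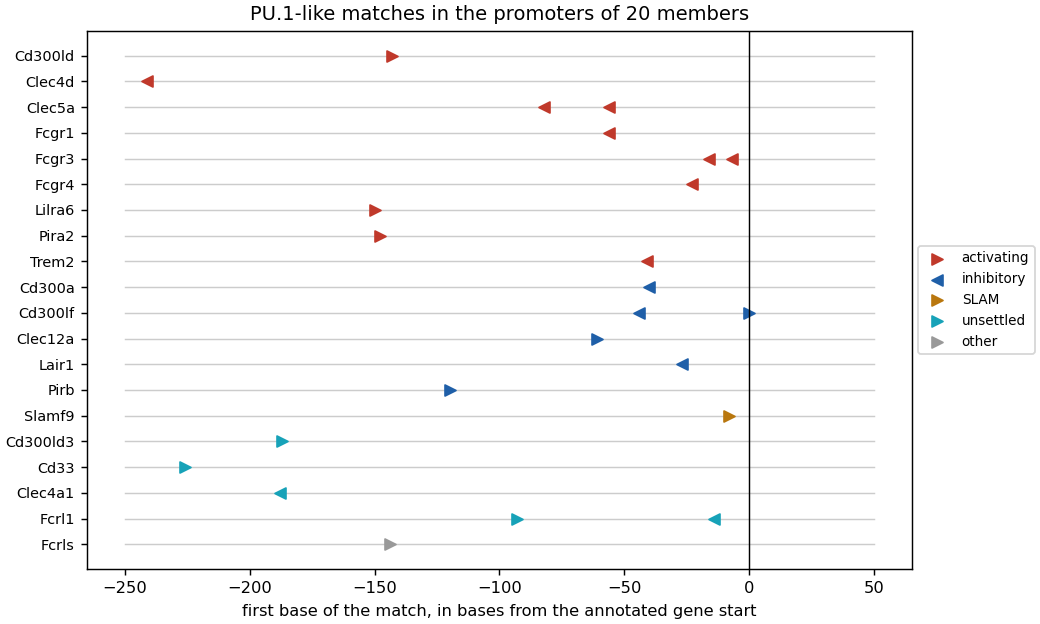
Position of GAGGAAG matches on either strand (triangles, pointing right where the letters are on the strand of the gene) from the annotated start (x axis, bases) in 20 members (rows), coloured by class. The 2 triangles of Fcgr3 are 1 site seen from 2 annotated starts, and in 11 members a match begins in the last 100 bases before the start.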

How the data were processed

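Total RNA of 4 Spp1 knockout and 4 wild-type samples of cultured astrocytes was sequenced, per the labels' protocols. Per the submitters' processing notes, the tools included STAR 2.7, DESeq2 1.30.1 and CASAVA 1.8, with the build GRCm38, and no role is stated for any of them. Neither the counting of reads, nor its annotation and filters, could be read from these sources. The authors deposited a single table of 1 comparison, without values per sample. Its columns, per the file headers, are a mean normalized count (a signal averaged over the samples), a log2 fold change, the SE on the log2 scale, a Wald statistic (a score) and the p-value before and after adjustment. Comparing the last 2 places the number of genes tested at about 16644.

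Members were found by gene name, and every member could be named. Of pathway and marker lists, up to 4 genes with the smallest adjusted p and those against their list's direction could be named; further marker and neighbouring genes were named after their values were seen. Members, classes and lists were chosen with earlier results of these data known. By textbook knowledge, activating receptors pair with FcR gamma chain or DAP12 or carry an activating tyrosine motif of their own (hemITAM), and inhibitory ones carry an ITIM. The hemITAM receptors Clec1b and Clec9a count among the annotated genes but were not in the table. Medians, intervals (95%, normal quantile) and implied means were computed with Python 3.11.15, pandas 2.3.3 and scipy 1.17.1 and tested on simulated data. Positions and exon lengths came from GENCODE M21 (GRCm38), in which all 53 members were found. The length covers the exons of all annotated transcripts of a gene, and ranks and ratios per kilobase depend on it. Whether counting used strand is not given, and 8 members share exon bases with another annotated gene. Motifs and printed promoters were chosen after the values were seen. Alternatives were a count minimum of 100, a log2 fold change of 1 or more in size, an adjusted p of at most 0.001, omission of near-identical copies, a weighted mean, other class assignments and omission of single genes.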

Additional observations from a re-analysis of the deposited data

How the results depend on the processing

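No paired analysis was possible because the deposited table holds no values per sample, and for the same reason no sample could be left out in turn. Depth limits could not be set. The activating median changed in 6 of 9 alternatives, to between 2.05 and 2.54, and the inhibitory median in 7 of 9, to between 1.81 and 2.13, and the other alternatives left them as they were. The activating median was 2.05 among receptors with a mean count of at least 100 and 2.11 without near-identical copies, beside 2.48, since both leave out the rare Sirpb1 genes and Pira2. Activating minus inhibitory, 0.51, was -0.021 without near-identical copies and otherwise 0.24 to 0.73. The count of higher members, 51, was 32 with 0 lower at a mean count of at least 100, since fewer genes were counted, and 39 to 51 in the other 3 alternatives. Leaving out Sirpa, or Pirb with Pira2, was chosen after seeing the data and gave differences of 0.35 and 0.49.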
